A study of Mus musculus with 8 samples.

Results

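Olfactory receptor genes are a family best known from the sensory neurons of the nose, and here they were followed through an ATAC-seq map of microglial chromatin. The members were the peaks whose assigned gene has a name that begins with Olfr followed by a digit. There were 98 such peaks among the 67822 peaks listed, and they were assigned to 50 of the 16095 genes with a peak. Microglia are macrophages that reside in the brain, and here they were taken from mouse forebrain as CD11b-positive cells on magnetic columns. The groups were Nlrp3 knockout mice (a Cias1 knockout, Cias1 being an older name of Nlrp3; 4 libraries) and wild-type mice of C57BL/6N background (4 libraries). Nlrp3 encodes an inflammasome sensor. Neither the age of the mice nor the background of the knockout line is given in the sources used here. RNA was not measured, so the values describe open chromatin near these genes and not their expression.

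Each olfactory receptor gene encodes a G protein-coupled receptor for odorants. A mature olfactory sensory neuron of the nose expresses a single receptor gene from a single allele, and the other members of the family are kept in compact chromatin marked by histone H3 lysine 9 trimethylation. Most of the genes lie in large clusters, and enhancers between the genes, bound by LHX2 and EBF factors, gather across chromosomes to switch on the chosen gene. Microglia have no known part in this programme, and PU.1 is the factor that sets up much of their own open chromatin.

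The start windows of 3 receptor genes are shown because Olfr110 held the only window of those available that a peak overlapped, its neighbour Olfr111 had the highest peak per length, and Olfr433 had a promoter-annotated peak that stopped 541 bp short of the window. Each window runs from 250 bases before to 50 bases after the start, on the plus strand of build GRCm38.p6, and was taken from RefSeq. The Olfr110 window is chr17:37492218-37492517, and its capitals mark the 86 bases covered by the peak. The Olfr111 window is chr17:37529707-37530006 and has no capitals. The Olfr433 window is chr1:174041683-174041982, and its capitals mark the only match to the motifs described next.
Olfr110: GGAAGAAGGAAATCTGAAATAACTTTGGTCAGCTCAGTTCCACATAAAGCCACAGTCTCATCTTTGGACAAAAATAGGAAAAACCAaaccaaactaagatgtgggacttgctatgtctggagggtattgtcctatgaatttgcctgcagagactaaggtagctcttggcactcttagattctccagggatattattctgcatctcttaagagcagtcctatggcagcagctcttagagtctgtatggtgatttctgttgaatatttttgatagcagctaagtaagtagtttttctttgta
Olfr111: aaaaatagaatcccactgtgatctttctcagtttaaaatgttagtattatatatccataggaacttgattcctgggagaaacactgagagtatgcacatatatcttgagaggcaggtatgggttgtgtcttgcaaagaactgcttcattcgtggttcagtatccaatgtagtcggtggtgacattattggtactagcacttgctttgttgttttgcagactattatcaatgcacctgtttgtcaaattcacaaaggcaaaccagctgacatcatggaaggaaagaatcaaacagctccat
Olfr433: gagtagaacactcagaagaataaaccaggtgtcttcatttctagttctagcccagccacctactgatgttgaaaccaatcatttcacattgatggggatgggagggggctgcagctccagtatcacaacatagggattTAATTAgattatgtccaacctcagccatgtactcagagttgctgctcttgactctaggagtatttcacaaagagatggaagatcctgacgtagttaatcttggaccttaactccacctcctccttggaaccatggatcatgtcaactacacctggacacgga

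Receptor start windows differed in base composition from those of other genes. The table held 948 windows of 944 coding receptor loci and 31903 windows of other genes. Median GC content was 35.0% in receptor windows, against 53.3% in the others, and 33.3% of receptor windows held no CpG, against 4.60% of the others. Among the motifs, each searched on both strands with none containing another, the homeodomain core TAATTA was in 18.6% of receptor windows and 4.90% of the others. The TATA motif TATAAA was in 41.0% of receptor windows and 12.8% of the others, and the AP-1 motif TGANTCA in 13.5% of receptor windows and 7.64% of the others. The EBF core CCCNNGGG was in 3.06% of receptor windows and 14.0% of the others, and the PU.1 motif GAGGAAGT was in 7 receptor windows (0.738%) and 3.28% of the others. A match describes letters in a window and not a bound site. The windows run past the start, so a match can also lie in coding letters. In the Olfr1423 window the TATAAA match lay after the ATG start codon, whereas in the Olfr161 window it lay before it. How far the shares of the motifs follow from coding letters or from the difference in GC content was not tested. The Olfr110 and Olfr111 windows held none of these motifs.

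Total tags, the reads counted by the authors, ranged from 11325865 to 15521580 per library. The percent of tags that fell in listed peaks was 6.68, 4.96, 20.9 and 26.2 in knockout replicates 1 to 4, against 17.5, 9.79, 12.8 and 14.4 in wild-type replicates 1 to 4. Receptor peaks held 957, 875, 2484 and 3269 tags in the knockout libraries, against 2249, 1510, 1818 and 2214 in the wild-type libraries. Knockout replicates 1 and 2 were thus the shallowest libraries over peaks, and results are also given without them where that changes a call. Such a fit compares only knockout replicates 3 and 4 with all wild-type libraries. The targeted gene followed the labels. The peak at the Nlrp3 start (chr11:59541383-59541657) held 0, 0, 0 and 1 tags in the knockout libraries, against 75, 58, 58 and 80 in the wild-type libraries. All 10 microglial marker genes had a peak, 9 of them at the promoter, whereas none of 7 olfactory sensory neuron markers had a promoter peak. Markers of other brain cells had some, at 1 of 8 neuron, 2 of 6 astrocyte, 3 of 7 oligodendrocyte lineage and 2 of 4 endothelial genes.

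Very few receptor loci carried open chromatin at the gene itself. Of 1110 coding receptor loci, 49 (4.41%) were assigned a peak and 4 (0.360%) a promoter-annotated peak, against 65.5% and 47.1% of the 20777 other coding genes. A peak overlapped 1 of the 948 start windows (0.105%), against 49.9% of the windows of other coding genes. That count leaves out Olfr658 and Olfr1033, which had no window in the RefSeq table and whose promoter peaks were centred 14 and 23 bp before the start. A window can also lie inside its locus, and a peak at the outer end of the locus is then not counted. The Olfr111 window (chr17:37529707-37530006) lies inside its locus (chr17:37525753-37537652), whose first bases a peak overlapped. How many windows lie so was not determined. A peak overlapped the body of 7 coding loci (0.631%), Olfr111 among them, against 64.2%. Windows of the other chemosensory families had no peak, with 0 of 206 vomeronasal type 1, 0 of 118 vomeronasal type 2, 0 of 11 trace amine-associated and 0 of 34 taste receptor windows overlapped. Keratin, keratin-associated and defensin windows, from families used by skin, hair and epithelia, were at 0 of 37, 0 of 51 and 0 of 46. Windows without a peak were thus the rule in these families as well as in the receptors.

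**Figure D1:**
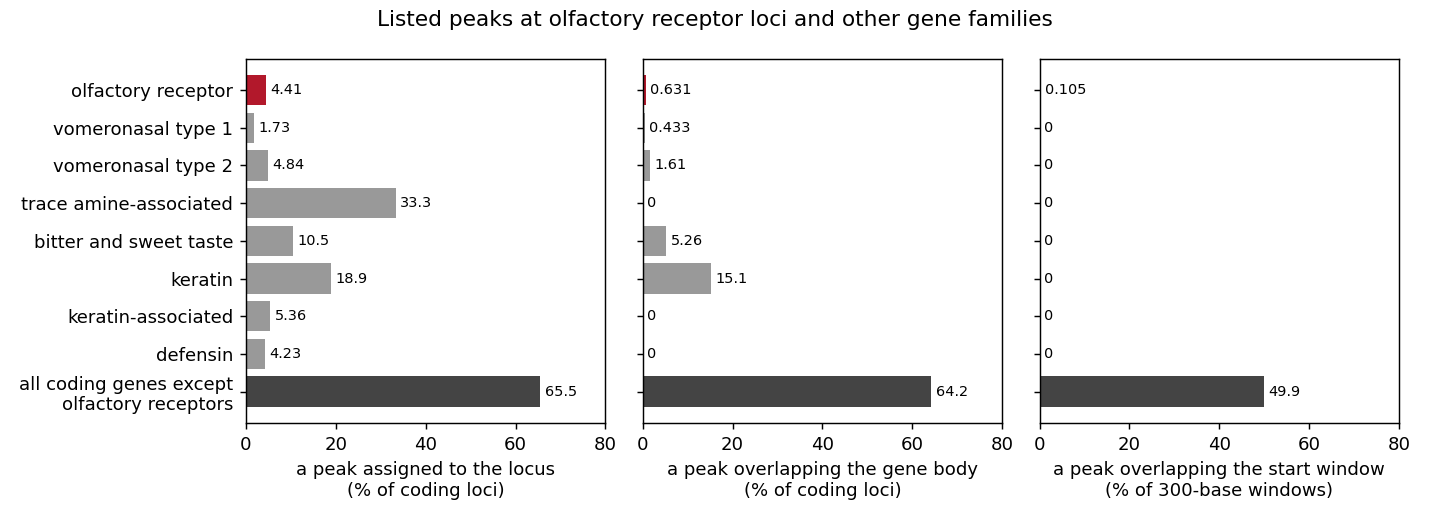
Share of coding loci with an assigned peak (left), of coding loci with a peak over the gene body (middle) and of 300-base start windows overlapped by a peak (right), in percent, by gene family, with no error because each share is a count over 1 peak list. Olfactory receptors sit at 4.41%, 0.631% and 0.105%, against 65.5%, 64.2% and 49.9% of all other coding genes.

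The receptor peaks lay mostly between genes. Of the 98 peaks, 80 (81.6%) were annotated as intergenic, against 30.3% of the peaks of other genes, 7 (7.14%) as intronic, against 43.0%, and 4 (4.08%) as promoter, against 19.5%. The median distance to the assigned start site was 11879.5 bp (quartiles 6469 and 27759), against 9570 bp (892 and 31448) for other peaks. Within 1 kb of the start lay 5 receptor peaks (5.10%), against 25.9% of other peaks. Beyond 100 kb lay 13 (13.3%), against 6.37%, and 12 of the 13 were the peaks of Olfr161. Assignment goes to the nearest start site, so a peak in a gene-poor region can carry a receptor's name over a long distance. Peak width was alike, with medians of 263 bp and 268 bp, and 73 receptor peaks came from both genotypes' peak lists, with 10 (10.2%) found in the knockout list alone and 15 (15.3%) in the wild-type list alone, against 8.17% and 16.3% of other peaks.

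**Figure D2:**
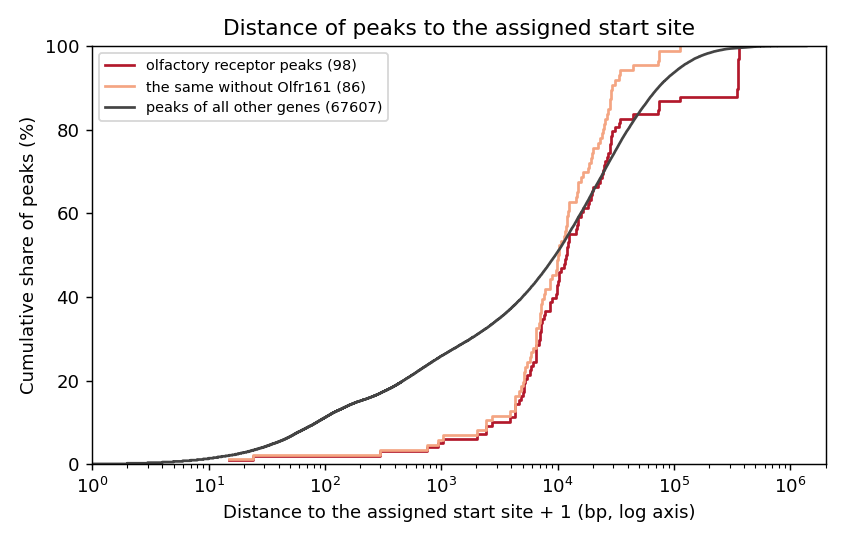
Cumulative share of peaks (%) against the distance to the assigned start site (bp plus 1, log axis) for the 98 receptor peaks, the 86 without Olfr161 and the 67607 peaks of all other genes. The receptor curve stays near 5.10% at 1 kb, where the other curve is at 25.9%, and its last step is Olfr161.

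Other features lay closer to many of these peaks than their receptor gene did. A tRNA gene lay within 1 kb of 13 receptor peaks (13.3%), against 0.334% of other peaks. Of these, 10 were peaks of Olfr1423 in a single stretch of chromosome 19, and the rest belonged to Olfr750 and Olfr1368. A further 11 receptor peaks lay inside another coding gene, among them Nlrp3, Rap1gap2, Lpxn and Clec5a. The matching share of other peaks was not counted, but 43.0% of them were intronic, against 7.14% of receptor peaks. An annotated repeat was recorded for 19 (19.4%), against 11.9% of other peaks, with 9 in LTR elements, 5 in LINEs, 4 in SINEs and 1 in a simple repeat. Only 8 of the 98 peaks overlapped the body of any receptor locus, pseudogenes included.

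Receptor clusters held few peaks per length. With a cluster taken as at least 10 loci less than 100 kb apart, 27 clusters contained 1241 of 1428 receptor loci over 23.8 Mb. They held 53 peaks, or 2.23 per Mb, against 25.3 per Mb in the rest of the genome, and 13 clusters held no peak. Of the 98 receptor peaks 34 lay inside clusters and 64 outside. The densest was the chromosome 17 cluster (chr17:37085191-37953022), next to the class I-like H2-M genes, with 15 peaks at 47 loci or 17.3 per Mb. The chromosome 2 cluster (chr2:85579215-90401674) had 3 peaks at 284 loci, or 0.622 per Mb.

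Where a receptor peak was called, its level was near that of other peaks away from promoters. Levels are in CPM, counts per 1000000 over tested peaks after TMM scaling. The median receptor peak was at 8.66 CPM (3.26 to 39.3), against 10.2 CPM for other peaks and 17.1 CPM for other promoter peaks. Among intergenic peaks alone the medians were 9.54 CPM for receptors and 9.32 CPM for the rest. The median tags of receptor peaks divided by the median tags of all other peaks in the same library had a median of 0.868 over libraries. It was 0.889, 1.00, 0.870 and 0.867 in knockout replicates 1 to 4, against 0.975, 0.767, 0.861 and 0.773 in wild-type replicates 1 to 4. Only 14 receptor peaks exceeded the median of other promoter peaks.

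The 5 highest receptor peaks by CPM were assigned to Olfr161, Olfr111, Olfr1423, Olfr521 and Olfr460. Per kilobase of width the order changed, because the Olfr161 peak was 937 bp wide. The Olfr111 peak had 149 CPM per kb, the Olfr1423 peak 120, the Olfr521 peak 111, the Olfr460 peak 109 and the Olfr161 peak 41.9, against a median of 35.0 CPM per kb over other peaks. The Olfr460 peak lay 975 bp from Clec5a, a myeloid lectin receptor gene. It had 24.1, 32.5, 32.5 and 30.4 CPM in the knockout libraries, against 22.9, 30.2, 30.2 and 29.3 CPM in the wild-type libraries. The Olfr521 peak had 39.8, 26.6, 31.6 and 27.8 CPM in the knockout libraries, against 29.3, 27.4, 22.8 and 29.3 CPM in the wild-type libraries. The genotypes overlapped at both.

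No receptor peak passed the threshold between the genotypes. Of the 98 peaks, 85 had enough tags to be tested and 0 of these passed an adjusted p of 0.05 in edgeR's quasi-likelihood test, against 0.170% of all 58135 tested peaks. Without adjustment 4 members had p under 0.05, all 4 higher in the knockout, which is 4.71% of the tested members against 4.83% of all tested peaks. That direction depended on the libraries: without knockout replicates 1 and 2 there were 11 such members of 92, against 7.30% of all tested peaks, with 4 higher and 7 lower, and without knockout replicate 2 alone there were 5 of 86, against 5.45%, with 2 higher and 3 lower. With total-tag scaling there were 0 of 85 members, and only 169 of all 58135 tested peaks. The genotypes did not overlap at 1 member (1.18%), against 3.17% of all tested peaks. DESeq2 called 0 members too, with 1 (1.18%) at an unadjusted p under 0.05, against 1.98% of all tested peaks. The lowest adjusted p among members was 0.579. In bulk libraries, fewer cells with an open site and a less open site in every cell cannot be told apart.

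The median log2 fold change of the tested members was 0.04 (quartiles -0.13 and 0.22), against 0.00 (-0.17 and 0.18) over all tested peaks, with 46 members above 0 and 39 below. The median standard error was 0.30. In 83 of 85 members the estimate was within 2-fold, and the exceptions were 1 peak each of Olfr161 and Olfr111. When all tags of a library set the scale, the medians were 0.08 for members and 0.10 for all peaks, with 57 members above 0 and 28 below. Receptor peaks took 0.110% ± 0.00991 of tags in peaks in knockout libraries and 0.102% ± 0.00447 in wild-type libraries (SD, n = 4 each). The difference of 0.00754 was below the knockout SD and above the wild-type SD. Without Olfr161 the shares were 0.0921% ± 0.00362 in knockout and 0.0890% ± 0.00510 in wild-type libraries, a difference of 0.00315.

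**Figure D3:**
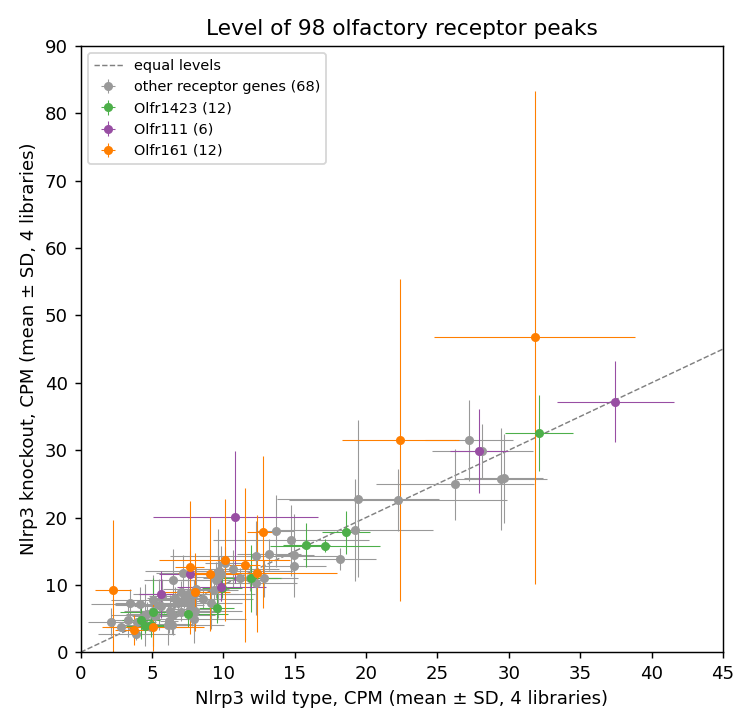
Mean CPM of each of the 98 receptor peaks in knockout (vertical axis) against wild-type libraries (horizontal axis), with SD over 4 libraries per genotype, coloured by gene, and the line of equal levels. Most points lie near the line, and the Olfr161 peaks have the widest knockout bars, up to 46.7 ± 36.6 CPM.

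Among promoter-annotated members, the Olfr110 peak (chr17:37492039-37492303, centred 297 bp before the start), whose covered bases are printed above, was the highest. It had 26.5, 16.2, 25.5 and 34.6 CPM in knockout replicates 1 to 4, against 29.3, 25.3, 33.0 and 30.3 CPM in wild-type replicates 1 to 4. The genotypes overlapped, and the log2 fold change was -0.11 ± 0.19 (SE). The Olfr433, Olfr658 and Olfr1033 promoter peaks averaged 16.6 ± 5.29, 10.7 ± 2.64 and 4.99 ± 3.57 CPM in the knockout, against 14.7 ± 5.48, 9.50 ± 3.23 and 7.94 ± 3.67 CPM in the wild type (SD, n = 4 each). None passed the test, and Olfr1033 had 0 tags in knockout replicate 1.

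Olfr111 had the member with the smallest p. Its 6 peaks lay 4.31 to 19.5 kb from the assigned start on chromosome 17, and one of them (chr17:37525527-37525764) overlapped the first bases of the RefSeq locus. The highest (chr17:37538475-37538725) had 29.0, 36.9, 40.0 and 43.0 CPM in the knockout libraries, against 39.8, 41.5, 36.4 and 32.1 CPM in the wild-type libraries. Those values overlap, and the log2 fold change was 0.04 ± 0.16 (SE). The peak 16490 bp past the start (chr17:37546275-37546620), in an RLTR45 endogenous retroviral element, had 6.03, 20.7, 26.8 and 26.8 CPM in the knockout libraries, against 7.46, 10.5, 6.26 and 19.1 CPM in the wild-type libraries. Knockout replicate 1 was the lowest library at this peak, and the other knockout libraries were above all wild-type libraries. The log2 fold change was 1.01 ± 0.31 (SE), with an edgeR adjusted p of 0.579. Without knockout replicates 1 and 2, edgeR gave 1.27 ± 0.27 with an adjusted p of 0.0186.

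All 6 Olfr111 peaks had log2 estimates above 0, from 0.04 to 1.01, and the libraries of the genotypes overlapped at each of the 6. The peak 5171 bp before the start had a log2 fold change of 0.59 ± 0.29 and the peak 19488 bp past it one of 0.70 ± 0.33 (SE), and neither passed. Summed over its peaks Olfr111 had 77.9, 111, 132 and 132 CPM in the knockout libraries, against 98.5, 93.9, 90.4 and 97.3 CPM in the wild-type libraries. Knockout replicate 1 was below every wild-type library and the other knockout libraries were above them. The log2 fold change was 0.31 ± 0.12 (SE), with an edgeR adjusted p of 0.651. Without knockout replicates 1 and 2, edgeR gave 0.47 ± 0.10 for the summed peaks with an adjusted p of 0.0230.

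**Figure D4:**
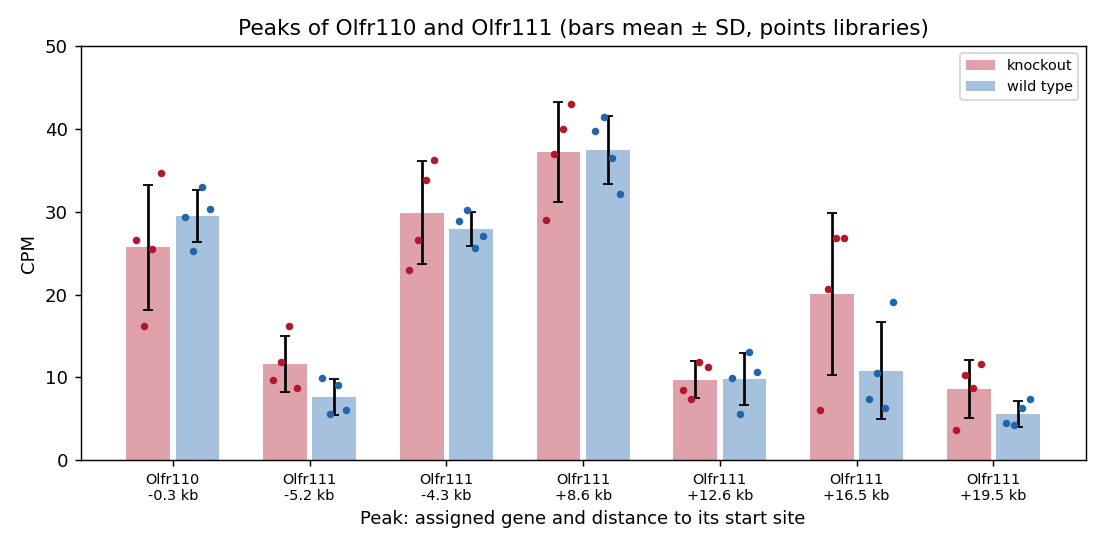
CPM of the Olfr110 peak and the 6 Olfr111 peaks, ordered along chromosome 17 and labelled by distance to the assigned start site (kb), with knockout left and wild type right, bars for mean ± SD over 4 libraries and points for libraries. The peak at +16.5 kb spans 6.03 to 26.8 CPM in knockout libraries, against 6.26 to 19.1 CPM in wild-type libraries.

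Tags in the 12 Olfr161 peaks did not follow the share of a library's tags that lay in peaks. They lay together in 15.8 kb (chr16:3231489-3247290), 345 to 361 kb from the gene, and no other listed peak on chromosome 16 came before them. Their tags summed to 180, 246, 205 and 201 in knockout replicates 1 to 4, against 247, 228, 254 and 257 in wild-type replicates 1 to 4. Scaled to the library, as tags per 1000000, this was 13.8, 17.2, 18.1 and 16.2 in the knockout libraries, against 20.8, 15.1, 17.8 and 16.6 in the wild-type libraries. Over the 8 libraries the Olfr161 values thus lay between 13.8 and 20.8, whereas those of all peaks of other genes spanned 5.28-fold. Knockout replicate 1 was the lowest library here too, and knockout replicate 2, low at most peaks, lay within the range of the others.

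That difference was clear peak by peak. Tags in knockout replicates 1 and 2 divided by those in replicates 3 and 4 had a median of 1.03 over the Olfr161 peaks, 0.259 over the other 86 receptor peaks and 0.281 over all other peaks. The ratio exceeded 0.75 at 10 of 12 Olfr161 peaks, at 1 other receptor peak (Olfr15) and at 2.81% of other peaks. Vomeronasal receptor peaks were also high, with a median of 0.980 and 50 of 63 above 0.75, but 40 of the 63 were assigned to 1 gene, Vmn1r2.

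Scaling to tags in peaks turned these similar tag numbers into unequal levels. The widest Olfr161 peak (chr16:3233784-3234720) held 41, 66, 53 and 52 tags in the knockout libraries, against 52, 57, 62 and 56 in the wild-type libraries. The same peak was at 49.5, 97.4, 23.3 and 16.8 CPM in the knockout libraries, against 25.9, 40.1, 35.3 and 26.1 CPM in the wild-type libraries. Knockout replicate 2 was thus the highest library and replicate 4 the lowest. In the fit on tags summed per gene, which has its own library scaling, Olfr161 had 212, 356, 86.7 and 62.1 CPM in the knockout libraries, against 120, 154, 135 and 114 CPM in the wild-type libraries, with knockout libraries on both sides of the wild-type range. The log2 fold change was 0.22 ± 0.31 (SE), and without knockout replicates 1 and 2 edgeR gave -0.82 ± 0.14 with an adjusted p of 0.00328. On the scale of tags in peaks, the sign of the Olfr161 difference thus depended on which knockout libraries were used. With the summed Olfr161 tags scaled to all tags of a library, as above, knockout replicate 1 was at 13.8, below the wild-type range of 15.1 to 20.8. The other knockout libraries, at 16.2 to 18.1, lay within that range.

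**Figure D5:**
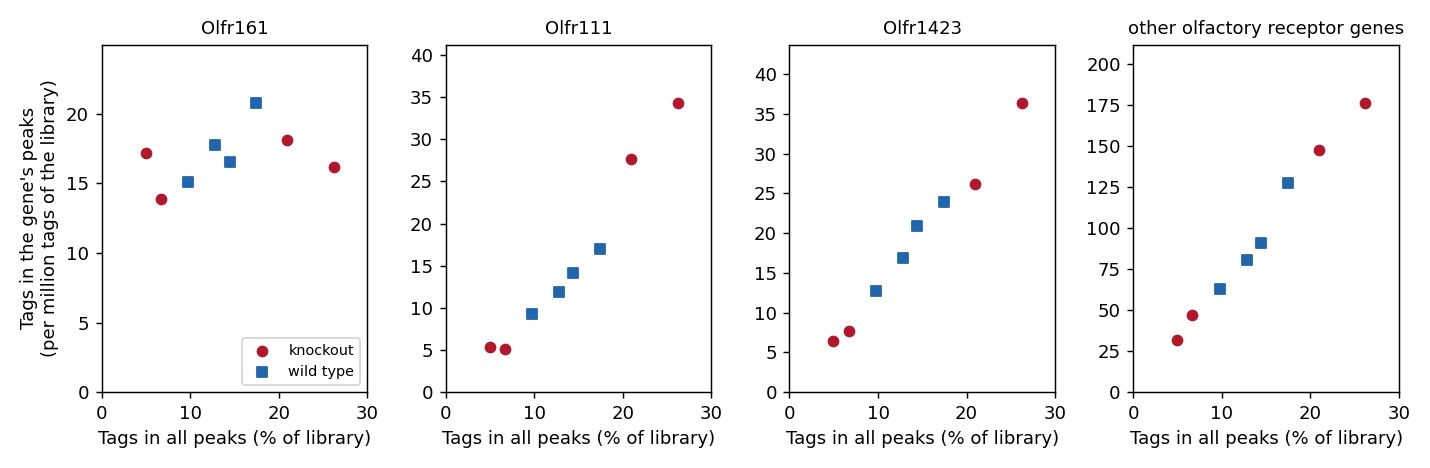
Tags in the peaks of Olfr161, Olfr111, Olfr1423 and all other receptor genes (tags per 1000000 in the library), against the percent of the library's tags in all peaks, with 1 point per library and no error bars. Olfr161 stays between 13.8 and 20.8 in all 8 libraries, while Olfr1423 reaches 36.4 in the library with the most tags in peaks.

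Olfr1423 was the other gene with 12 peaks. They lay 9.99 to 34.4 kb from its start (chr19:12002256-12026865), 10 of them within 1 kb of a tRNA gene and 5 overlapping one. Summed, they had 118, 135, 125 and 140 CPM in the knockout libraries, against 138, 130, 129 and 144 CPM in the wild-type libraries. The genotypes overlapped, with a log2 fold change of -0.06 ± 0.09 (SE). The highest peak (chr19:12013300-12013568), 962 bp from a tRNA gene, averaged 32.5 ± 5.71 CPM in the knockout and 32.1 ± 2.40 CPM in the wild type (SD, n = 4 each). Tags in knockout replicates 1 and 2 divided by those in replicates 3 and 4 had a median of 0.242 over the Olfr1423 peaks, near the 0.281 of all other peaks and unlike Olfr161.

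Of the remaining receptor genes with 3 or more peaks, Olfr156 had 4, and Olfr225, Olfr412, Olfr521 and Olfr545 had 3 each. Their summed log2 fold changes ran from 0.01 for Olfr225 to 0.15 for Olfr412, and none passed the test. The Olfr156 peak 2733 bp before the start was the only tested receptor peak whose genotypes did not overlap. It had 7.24, 10.3, 5.71 and 6.15 CPM in the knockout libraries, against 4.47, 2.11, 3.98 and 3.26 CPM in the wild-type libraries. The log2 fold change was 0.92 ± 0.39 (SE) on 3 to 19 tags per library, with an edgeR adjusted p of 0.960.

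Receptor peaks in and beside Nlrp3 did not pass the test, unlike its promoter peaks. Both Olfr222 peaks lay in intron 7 of Nlrp3, 19.0 and 20.1 kb past the promoter peaks that lost their tags in the knockout. The first (chr11:59561786-59562066) had 8.45, 5.91, 8.78 and 8.73 CPM in the knockout libraries, against 11.9, 11.2, 5.12 and 6.06 CPM in the wild-type libraries. The second (chr11:59562956-59563179) had 7.24, 5.91, 11.4 and 16.5 CPM in the knockout libraries, against 9.45, 14.1, 10.2 and 15.4 CPM in the wild-type libraries. The genotypes overlapped at both, and the log2 fold changes were -0.03 ± 0.32 and -0.03 ± 0.28 (SE). The 3 peaks of Olfr225, farther along the chromosome, had log2 estimates of -0.22 ± 0.24, 0.00 ± 0.28 and 0.26 ± 0.29 (SE). None of these 5 passed the test.

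The other members with the smallest p values were also short of the threshold. Olfr23 held 14, 8, 42 and 77 tags in the knockout libraries, against 30, 19, 21 and 31 in the wild-type libraries, with a log2 fold change of 0.51 ± 0.23 (SE). Its peak overlapped the pseudogene Olfr396-ps1. On the lower side were a narrow Olfr161 peak (-1.10 ± 0.71), Olfr520 (-0.71 ± 0.45), Olfr99 (-0.61 ± 0.39), Olfr722 (-0.45 ± 0.33) and Olfr750 (-0.36 ± 0.21, log2 ± SE). The Olfr161 peak at chr16:3246480-3246692 had 5, 5, 2 and 2 tags in the knockout libraries, against 0, 12, 10 and 13 in the wild-type libraries. The Olfr750 peak, which overlapped a tRNA gene, averaged 13.8 ± 1.58 CPM in the knockout and 18.1 ± 2.58 CPM in the wild type (SD, n = 4 each). Its libraries overlapped between genotypes, as they did at the other 4.

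With tags summed per gene, 47 of the 50 receptor genes could be tested. None passed in edgeR, against 0.213% of all 15476 tested genes, and 2 (4.26%) had an unadjusted p under 0.05 (Olfr111 and Olfr23), against 5.96% of all tested genes. DESeq2 also called 0, with 1 (2.13%) at an unadjusted p under 0.05, against 3.44% of all tested genes. The median log2 fold change was 0.07, against 0.00 over all tested genes, with 29 above 0 and 18 below. Olfr630, Olfr324 and Olfr31 followed on the higher side at 0.88 ± 0.50, 0.56 ± 0.30 and 0.41 ± 0.25 (log2 ± SE). Olfr520, Olfr750, Olfr722, Olfr547 and Olfr1368 were on the lower side, from -0.70 to -0.28.

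The machinery that receptor genes depend on in the nose was also followed. Of 18 genes of olfactory signal transduction, 13 had a peak and 4 a promoter peak, and Omp, Adcy3, Cnga4, Reep1 and Pde1c had no listed peak. Among all coding genes except olfactory receptors, 65.5% had a peak and 47.1% a promoter peak. Adcy3 encodes the adenylyl cyclase of odour signalling and Omp the marker protein of mature olfactory neurons. Cnga2, a subunit of the cyclic nucleotide-gated channel, had 61.8 ± 14.0 CPM in the knockout and 51.7 ± 12.9 CPM in the wild type (SD, n = 4 each) over 6 peaks, none at a promoter. Of 15 regulators of receptor choice, 14 had a peak and 10 a promoter peak. Kdm1a, a histone demethylase gene, had the smallest p of that list, at 10.6 ± 2.21 CPM in the knockout and 19.1 ± 3.82 CPM in the wild type (SD, n = 4 each), with a log2 fold change of -0.74 ± 0.23 (SE) and an edgeR adjusted p of 0.478.

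Genes that build compact chromatin were open in these cells. Of 20 heterochromatin writers and readers, 19 had a peak and 17 a promoter peak, against 65.5% and 47.1% of coding genes except olfactory receptors. Their median summed level was 37.1 CPM per gene. Their median log2 fold change was -0.01, and 0 of 19 tested genes passed. Dnmt1, the maintenance DNA methyltransferase gene, was at 15.9 ± 3.96 CPM in the knockout and 20.3 ± 5.74 CPM in the wild type, and Cbx5, encoding HP1 alpha, at 75.3 ± 10.7 CPM in the knockout and 87.5 ± 5.94 CPM in the wild type (SD, n = 4 each). No tested member of the signal transduction or receptor choice lists passed either, with medians of 0.02 and 0.00 on the log2 scale. Of 7 olfactory sensory neuron markers 5 had a peak, and their 18 peaks summed to 183 to 234 CPM in knockout libraries and 179 to 250 CPM in wild-type libraries. The 136 peaks of the 10 microglial markers summed to 2335 to 2612 CPM in knockout libraries and 2173 to 2418 CPM in wild-type libraries. These sums were not scaled to the number of peaks.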

How the data were processed

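Per the file headers, the authors merged 1 peak list per genotype, each kept by reproducibility between replicates (IDR), and counted tags over the merged peaks with at most 3 tags per position. The deposited raw table holds these counts. Bowtie2, HOMER, DESeq2 and build mm10 were used, per the submitters' processing notes. Alignment settings, read shifts and duplicate removal were not given in the sources used here.

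Counts were tested with edgeR 4.0.16 (R 4.3.3) over all peaks, with TMM scaling, filterByExpr (minimum count 10) and Benjamini-Hochberg adjustment over all tested peaks. The same test ran on tags summed per gene. Each SE was derived from the edgeR test, as the absolute log2 fold change divided by the square root of its F statistic. DESeq2 1.42.0 was an alternative. The labels do not say whether replicates were separate animals, so p-values measure the spread between samples, which may be technical. Loci, tRNA genes and windows came from RefSeq (GRCm38.p6), and 49 of 50 receptor genes matched. The 117 peaks without a gene stayed in the peak test only. No pair of libraries agreed within sampling noise.

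The members and gene lists were chosen with earlier results of these data known. Named peaks were the 5 highest, the 5 smallest p per direction, promoter peaks, the 3 farthest, and those within 100 kb of Nlrp3. Named genes were those with most peaks, the 5 smallest p per direction, and up to 3 per list. The Olfr15 peak, the Olfr111 peak at its locus start, the named clusters and the vomeronasal peaks were singled out after their values were seen.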

Additional observations from a re-analysis of the deposited data

Results flagged for a closer look

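A library stood apart from the other 3 of its genotype at 7 of the 90 sets of 4 libraries checked, and chance gives this in about 1 in 20 sets. Among knockout libraries, the Olfr222 peak at chr11:59561786-59562066 was at 5.91 CPM in 1 library, against 8.45 to 8.78 in the others, and the Olfr658 promoter peak was at 6.79 CPM, against 11.8 to 12.3. Summed over peaks, Olfr545 was at 19.8 CPM, against 33.0 to 35.4, and Olfr630 at 10.6 CPM, against 5.56 to 5.90. The ratio of medians was 1.00 in knockout replicate 2, against 0.867 to 0.889. Among wild-type libraries, the Olfr225 peak at chr11:59637075-59637300 was at 11.4 CPM in 1 library, against 8.85 to 9.14, and the Olfr460 peak beside Clec5a was at 22.9 CPM, against 29.3 to 30.2.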

How the results depend on the processing

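Receptor calls stayed at 0 for peaks and for genes under total-tag scaling, DESeq2, no filter on low counts, robust moderation and each left-out library. The fit without knockout replicates 1 and 2 compares replicates 3 and 4 with all wild-type libraries. In that fit edgeR called 1 of 92 tested receptor peaks (Olfr111, log2 1.27), against 246 of all 65112 tested peaks. It called 2 of 49 tested receptor genes, against 70 of all 15921 tested genes. They were Olfr111, and Olfr161 with its sign turned to -0.82 on the scale of tags in peaks. The cause was not tested. The median log2 fold change of receptor peaks moved to 0.083 under total-tag scaling and ranged from -0.017 (without wild-type replicate 4) to 0.11 (without knockout replicate 4) when 1 library was left out. The ratio of medians moved to 0.988 when only intergenic peaks were compared. The median distance moved to 10111.5 bp without the Olfr161 peaks, an alternative chosen after seeing the data. With replicate number as a block (replicate block), 0 receptor peaks and 0 receptor genes were called and the median was 0.062. Same-numbered libraries correlated at -0.01, 0.10, -0.01 and 0.15, so the numbers were not taken as pairs. All-peak calls rose to 140 with that block, against 99 without it. They were 19 with total-tag scaling, 65 with DESeq2, 246 without knockout replicates 1 and 2, and 65 without knockout replicate 3. All-gene calls were 5, 28, 70 and 20 in the same order, and 21 without wild-type replicate 3, against 33. Depth left 13 of 98 receptor peaks with too few tags to test, so 86.7% were tested, against 85.7% of other peaks.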

Other observations

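Vomeronasal receptor peaks, from the pheromone receptor families, resembled Olfr161 as a set in how tags spread over the libraries, with 40 of the 63 assigned to Vmn1r2. The 40 peaks assigned to Vmn1r2 summed to 792 ± 530 CPM in the knockout and 524 ± 95.0 CPM in the wild type (SD, n = 4 each), with a log2 fold change of 0.55 ± 0.28 (SE). These levels are scaled to tags in peaks, a scale that turned similar tag numbers at Olfr161 into unequal levels. Whether the same holds for Vmn1r2 was not tested. The 4 vomeronasal type 1 genes with a peak summed to 373 to 1726 CPM in knockout libraries, against 527 to 841 CPM in wild-type libraries, and none of the 4 passed the test. Ms4a genes, named with the chemosensory families and also used by macrophages, had a promoter peak at 3 of 7 genes with a peak, and their summed level was 155 to 173 CPM in knockout libraries and 117 to 146 CPM in wild-type libraries. The Ms4a ranges did not overlap, but 0 of 7 genes passed, and Ms4a7 had the smallest p (log2 0.60 ± 0.23, SE; edgeR adjusted p 0.662).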
